A study of Homo sapiens with 24 samples.

Results

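The glucocorticoid receptor (GR) and the chaperone machinery that holds it ready for hormone were followed at the RNA level in A549 cells, a human lung adenocarcinoma line of epithelial origin, over a time course of the synthetic glucocorticoid dexamethasone (dex). The 10 genes were NR3C1, which encodes GR, the chaperone genes HSP90AA1, HSP90AB1, HSPA8 and DNAJB1, the cochaperone genes STIP1 and PTGES3, and the immunophilin genes FKBP5, FKBP4 and PPID. They were taken from a table of transcript counts by GENCODE symbol, matched through the transcript identifier without its version, and the counts of a gene's transcripts were summed in each library. All 10 were found among the 33127 genes of the table. Their 71 transcripts together held 1.00% of all counts, and all 10 genes passed the filter on low counts.

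Cells received 100 nM dex in ethanol, or the same volume of ethanol alone at 0.02% v/v (EtOH), for 1, 3, 5, 7, 9 or 11 h. Every group held 2 libraries of poly-A RNA, labelled as biological replicates 1 and 2, which makes 24 libraries in all. Every culture was the same line, grown in F-12K medium with serum, and no transgene or edited allele is named. The general treatment text gives 1 h for every library while the duration label runs from 1 to 11 h, so the duration label was used.

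In cells without hormone, GR waits in the cytoplasm in a complex built around a dimer of HSP90. HSP40 (here DNAJB1) and HSC70 (HSPA8) bind newly made receptor first, STIP1 passes it from HSP70 to HSP90, and p23 (PTGES3) steadies the mature complex in which GR can bind hormone. The immunophilins FKBP51 (FKBP5), FKBP52 (FKBP4) and cyclophilin 40 (PPID) then compete through their TPR domains for one site on HSP90. FKBP51 lowers the affinity of GR for hormone and FKBP52 favours its transport to the nucleus. FKBP5 is a classical GR target gene, so FKBP51 and GR form a short negative feedback loop.

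The genes for HSP90, HSP70 and HSP40 proteins are also classical targets of heat shock factor 1 (HSF1). The upstream bases of 4 of them are shown here because the chaperone genes did not move alike below. They carry the element that HSF1 binds, which is built from inverted repeats of GAA. In the first 3 sequences the capitals mark a heat shock element of 3 units (TTCNNGAANNTTC or GAANNTTCNNGAA, which together cover both strands), and in DNAJB1 they mark 2 units (GAANNTTC). Each runs 5′ to 3′ over the 250 bases before a RefSeq transcription start on GRCh38.p14.
HSP90AA1: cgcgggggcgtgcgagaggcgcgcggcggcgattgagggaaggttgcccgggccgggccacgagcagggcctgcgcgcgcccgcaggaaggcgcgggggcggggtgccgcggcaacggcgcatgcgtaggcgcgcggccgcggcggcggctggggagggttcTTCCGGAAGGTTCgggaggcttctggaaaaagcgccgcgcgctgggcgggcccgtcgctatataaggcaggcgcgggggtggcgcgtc
HSP90AB1: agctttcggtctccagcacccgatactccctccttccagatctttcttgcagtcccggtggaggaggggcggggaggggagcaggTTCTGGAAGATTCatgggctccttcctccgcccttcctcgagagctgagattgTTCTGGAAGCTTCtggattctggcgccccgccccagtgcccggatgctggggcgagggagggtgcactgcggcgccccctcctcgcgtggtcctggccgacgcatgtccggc
HSPA8: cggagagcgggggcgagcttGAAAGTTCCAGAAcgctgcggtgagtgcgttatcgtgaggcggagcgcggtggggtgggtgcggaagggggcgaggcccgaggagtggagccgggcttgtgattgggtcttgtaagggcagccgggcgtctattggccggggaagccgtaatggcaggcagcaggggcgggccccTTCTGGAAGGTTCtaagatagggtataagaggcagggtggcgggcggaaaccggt
DNAJB1: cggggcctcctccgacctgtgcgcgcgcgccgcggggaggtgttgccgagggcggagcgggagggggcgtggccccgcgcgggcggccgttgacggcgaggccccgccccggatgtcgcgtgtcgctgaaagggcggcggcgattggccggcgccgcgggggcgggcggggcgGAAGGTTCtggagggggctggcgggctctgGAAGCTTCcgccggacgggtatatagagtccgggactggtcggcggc

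The HSP90AA1 stretch is chr14:102087045-102087294 on the minus strand, with the element beginning at -88. HSP90AB1 is chr6:44247693-44247942 on the plus strand, with elements at -165 and -112. HSPA8 is chr11:123062137-123062386 on the minus strand, with elements at -230 and -55. DNAJB1 is chr19:14518398-14518647 on the minus strand, with 2-unit elements at -77 and -47.

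RefSeq promoters of 300 bases (250 before and 50 after the start) were matched for 9 of the 10 genes, with 22 promoters among them. The 3-unit element was found in 3 of these 9 genes, against 0.608% of all 27305 genes. By promoter it was in 3 of the 22, against 0.49% of all 35116 promoters. The 2-unit element, which every 3-unit element contains, was found in 5 of the 9 genes, against 16.2% of all genes. By promoter it was in 6 of the 22, against 13.5% of all promoters. STIP1 was the fifth gene, with its match after the start. The palindromic glucocorticoid response element (GNACANNNTGTNC) was in 0.39% of all promoters and in 0 of the 22. So rare a match makes 0 of 22 uninformative, and bases outside these 300 were not searched.

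The 24 libraries held between 6708864 and 13748598 counts. The spread between replicates, as the biological coefficient of variation of the edgeR fit, ran from 6.53% at 7 h to 12.7% at 11 h. Differences between the replicates of a group followed the GC content of the genes, and the correlation across 9525 genes reached 0.57 for dex at 1 h and 0.64 for dex at 11 h. An alternative with a GC-content offset, added after the data were seen, was therefore run for every count below. All 7 epithelial and A549 markers were counted in every library, at unlike levels. In counts per 1000000 counts of the library (CPM), the medians of KRT8, KRT18, AKR1B10 and ALDH1A1 were 2465, 2563, 2083 and 16435. Those of EPCAM, KRT19 and CDH1 were 8.37, 13.8 and 36.0. For 9 markers of leukocytes, endothelium and stroma the summed level was 1.81 to 5.16 CPM with dex and 2.48 to 4.65 CPM with EtOH. PECAM1 was not analysed here, and CD3E was at 0 counts in every library.

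Between genes, levels were compared per length, as CPM per kilobase of transcript. With EtOH, HSP90AA1 was the highest, at a median of 1966 CPM per kb over 12 libraries, followed by HSPA8 (1637), PTGES3 (654) and HSP90AB1 (548). The ranges of these genes did not touch one another. FKBP4 (143), NR3C1 (110.0), DNAJB1 (98.7) and STIP1 (91.4) followed, and the ranges of neighbours in that order overlapped. PPID (37.1) and FKBP5 (5.96) were the lowest, each below the range of the gene above it. The client receptor was thus present at a small part of the level of the HSP90 genes, and FKBP5 was the scarcest of the 10 before hormone.

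FKBP5, the inhibitory immunophilin, rose with dex from 3 h on and stayed high to 11 h. After normalization to library size, its level at 3 h was 224 and 216 CPM in the dex libraries against 20.9 and 21.4 CPM in the EtOH libraries. At 5 h it was 374 and 342 CPM against 26.0 and 27.0 CPM. At 9 h it was 403 and 402 CPM against 25.0 and 20.6 CPM. The treatments did not overlap at any of the 6 time points, and the EtOH level lay between 20.6 and 27.5 CPM throughout. At a single time, 34.6% (1 h) to 58.7% (7 h) of all genes did not overlap. In bulk RNA of this kind, more RNA per cell and a larger share of cells with the RNA cannot be told apart.

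The log2 fold change of FKBP5 was 3.38 ± 0.12 (SE) at 3 h, 3.76 ± 0.12 at 5 h, 4.03 ± 0.09 at 7 h, 4.14 ± 0.13 at 9 h and 3.96 ± 0.15 at 11 h. These are rises of 10.4, 13.5, 16.4, 17.6 and 15.6 fold. The adjusted p of edgeR's quasi-likelihood test ran from 5.06e-30 at 7 h to 2.60e-08 at 11 h. FKBP5 thereby moved from the lowest place of the 10 genes to 82.6 to 97.5 CPM per kb between 5 and 11 h with dex, a stretch that lay inside the range of NR3C1 with dex (64.4 to 105 CPM per kb).

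At 1 h the FKBP5 gene sum was 40.0 and 38.5 CPM with dex against 27.5 and 27.4 CPM with EtOH. The log2 fold change of 0.52 ± 0.14 missed the threshold of 0.1 (edgeR adjusted p = 0.124). It passed in one fit over all 24 libraries (adjusted p = 0.00470), with the GC-content offset (0.48, adjusted p = 0.0398) and without replicate 2 of dex (0.54, adjusted p = 0.0218). The step from 1 to 3 h was the largest of the course, with the dex effect rising by 2.86 ± 0.14 on the log2 scale (edgeR adjusted p = 2.73e-13), where 4.88% of all genes passed.

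**Figure D1:**
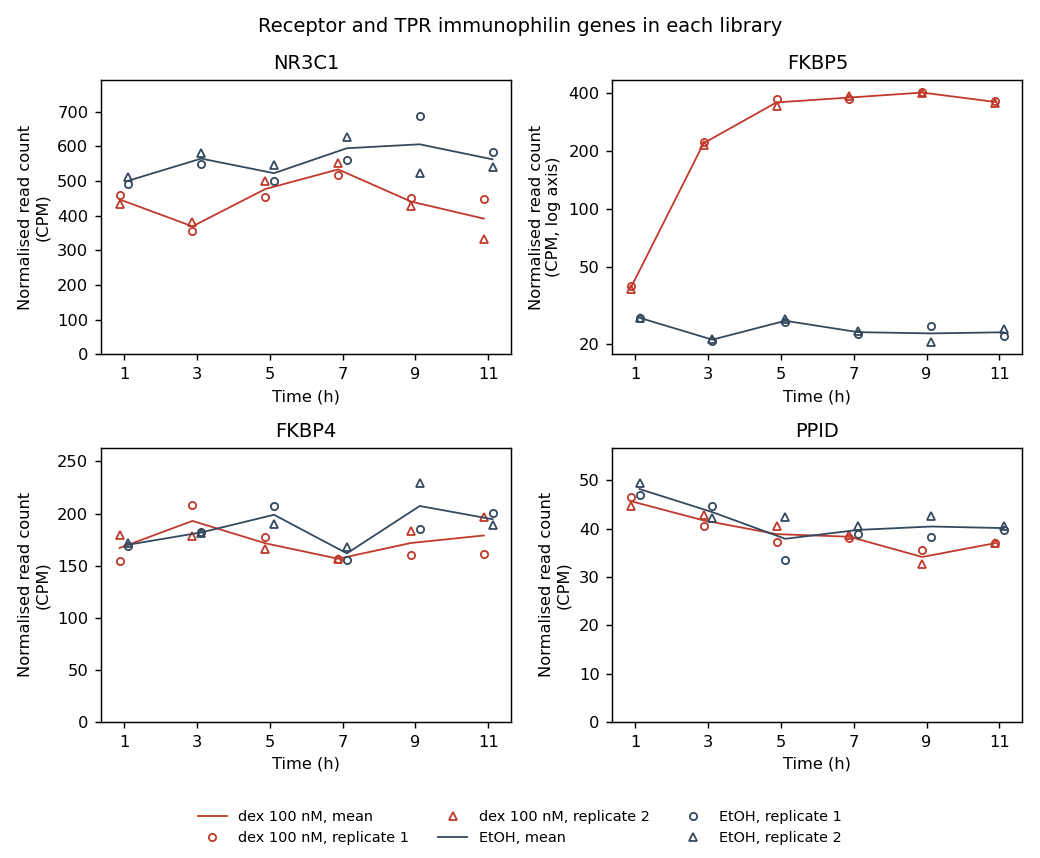
Normalised read count (CPM) of NR3C1, FKBP5, FKBP4 and PPID against time in hours, with 1 point for each library and lines through the mean of the 2 replicates. FKBP5, on a log axis, lies above EtOH in every dex library with a fitted fold of 10.4 at 3 h and 17.6 at 9 h, NR3C1 lies below EtOH in both dex libraries at every time but 5 h, and FKBP4 and PPID overlap or lie close to EtOH.

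One FKBP5 transcript passed the test already at 1 h. FKBP5-201, FKBP5-202 and FKBP5-203 share nearly all of their bases and each held between 29.2% and 30.2% of the gene's counts. FKBP5-204 held 10.9%. It has 7 exons, against 11 or 12 in the others, and 6482 of its 7384 bases lie in no other FKBP5 transcript of the table. Reads in those bases were thus not shared with the other models. FKBP5-204 ends at chr6:35580557, upstream on the minus strand of the shared 3′ end and within the span of the other transcripts. Whether the reads in its own bases came from this transcript or from unspliced FKBP5 RNA was not tested.

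FKBP5-204 stood at 6.73 and 7.43 CPM with dex at 1 h against 2.34 and 3.44 CPM with EtOH, which are 68 and 49 counts against 27 and 48. Its log2 fold change of 1.26 ± 0.26 passed the test at 1 h (edgeR adjusted p = 0.0140 over 56380 transcripts), where 0.431% of all transcripts did. The other transcripts were at 0.29 to 0.53 and did not pass. At 3 h FKBP5-204 was at 4.16 ± 0.20 and the others at 3.17 to 3.42, and from 5 h on all 4 lay between 3.55 and 4.31.

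FKBP5-204 made up a varying share of the counts of its gene. The share was 16.8% and 19.4% with dex at 1 h, 14.5% and 13.5% at 3 h and between 8.61% and 10.9% from 5 h on. With EtOH the share was between 7.36% and 15.4%, on at most 50 counts a library. The difference in fold change between the transcripts was not tested.

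NR3C1 fell with dex at 3, 9 and 11 h and lay closer to EtOH between. At 3 h it was at 356 and 383 CPM with dex against 549.2 and 580.9 CPM with EtOH. At 5 h it was at 455 and 500 CPM against 499 and 547 CPM, which overlapped. At 9 h it was at 452 and 430 CPM against 689 and 524 CPM, and at 11 h at 450 and 334 CPM against 584 and 542 CPM. Both dex libraries were below both EtOH libraries at every time point but 5 h. At a single one of these times, 16.8% (1 h) to 29.8% (7 h) of all genes lay below in this way.

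The log2 fold change of NR3C1 at 3 h was -0.61 ± 0.10, a 1.53-fold lower level (edgeR adjusted p = 2.10e-05). At 1, 5 and 7 h it was -0.16, -0.13 and -0.16, with edgeR adjusted p of 0.882, 0.424 and 0.150. It was -0.46 ± 0.13 at 9 h (edgeR adjusted p = 0.0322) and -0.52 ± 0.16 at 11 h (edgeR adjusted p = 0.0725). Leaving out either dex library at 9 h gave -0.50 and -0.42 with adjusted p of 0.222 and 0.320, and leaving out either EtOH library at 11 h gave -0.47 and -0.58 with adjusted p of 0.541 and 0.293. The size moved as well. At 9 h it was -0.25 without replicate 1 of EtOH and -0.64 without replicate 2, and at 11 h it was -0.75 without replicate 1 of dex and -0.32 without replicate 2, each of these passing. The call at 3 h passed in every alternative.

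Whether the NR3C1 effect itself changed over the course did not pass the test over 6 time points (interaction F-test of edgeR, adjusted p = 0.127), although it did with the GC-content offset (adjusted p = 0.0101). The return from 3 to 5 h, a rise of 0.48 on the log2 scale, had an adjusted p of 0.118 by the same edgeR fit. The EtOH libraries at 9 h were themselves 689 and 524 CPM apart, the widest gap between replicates of NR3C1 with EtOH.

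The 8 longest NR3C1 transcripts, with coding parts of 2226 to 2334 bases, were set in 2 classes by the length after the coding part. NR3C1-205 (2226 bases) and NR3C1-206 (2253 bases) have shorter coding parts than the others, so the classes do not differ in that length alone. NR3C1-202, NR3C1-203 and NR3C1-206 have 2325 to 3961 bases after the coding part and held 80.4% of the gene's counts. NR3C1-201, NR3C1-204, NR3C1-205, NR3C1-209 and NR3C1-212 have 81 to 1431 bases there and held 19.2%. These classes were set after the values had been seen, and the lengths are those of GENCODE release 29, in which most of these transcripts have a newer version. The transcripts are not independent readings, since NR3C1-201, NR3C1-205 and NR3C1-206 have 0 bases of their own among the listed transcripts and NR3C1-203 has 11. Transcripts of the short class have at most 169 such bases. Reads in bases shared by both classes cannot be told apart, so the class sums need not measure short and long RNAs separately.

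At 3 h, where 7.12% of all transcripts passed, all 8 of these fell, by 0.55 to 0.59 on the log2 scale in the long class and by 0.71 to 1.05 in the short class. At 5 h the long transcripts were at -0.10, -0.07 and -0.04 and none passed. In the short class 4 of 5 passed at 5 h, from -0.45 (NR3C1-205, edgeR adjusted p = 0.0313) to -0.57 (NR3C1-204, edgeR adjusted p = 0.00820), while 14.7% of all transcripts did. NR3C1-201 was at -0.25 and did not pass.

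Summed over its transcripts, the short class at 5 h was 85.8 and 72.9 CPM with dex against 101 and 113 CPM with EtOH. The long class was 367 and 425 CPM against 396 and 432 CPM and overlapped. At 11 h 4 of the 5 short transcripts and none of the long passed (5.12% of all transcripts did), and the short class was 67.9 and 64.5 CPM with dex against 112 and 109 CPM. At 7 h, where 16.1% of all transcripts passed, 3 of the short transcripts and none of the long did, with the summed classes at -0.40 and -0.09. The order was the other way at 1 h, with the short class at 0.13 and the long at -0.26 and no transcript passing, and at 9 h, with the long transcripts at -0.43 to -0.57, all 3 passing (10.4% of all transcripts did), and the short ones at -0.18 to -0.45, none passing. The difference between the classes was not tested, and every call of the 8 transcripts at 5 h kept its side of the threshold with the GC-content offset.

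**Figure D2:**
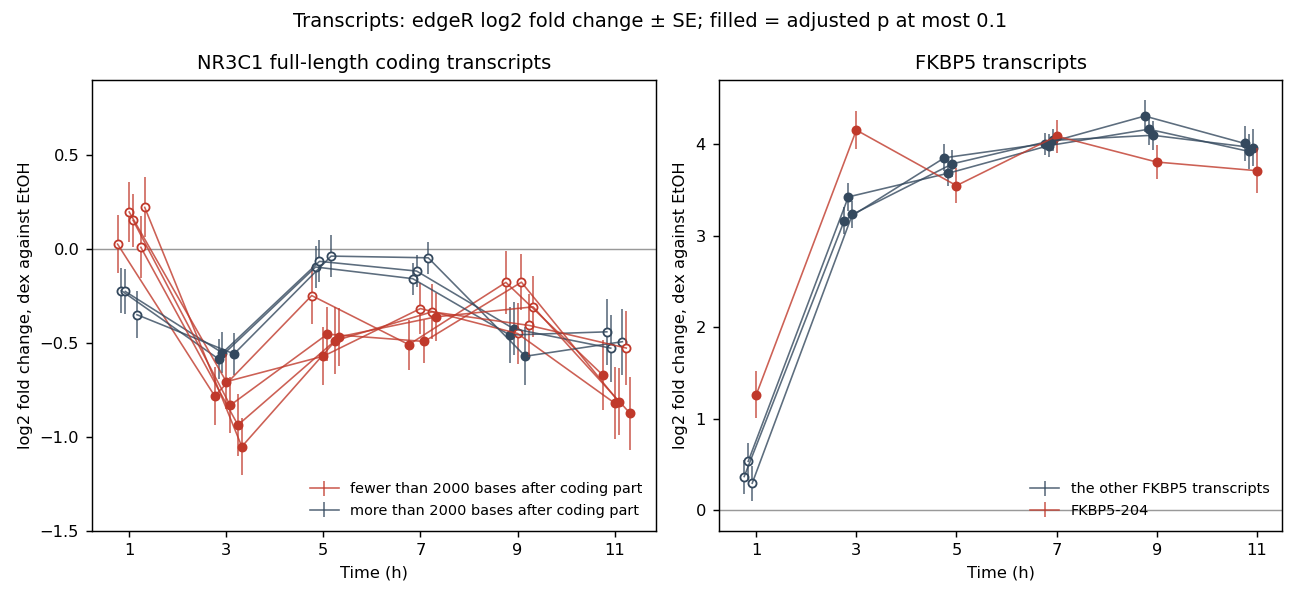
The edgeR log2 fold change of dex against EtOH (± SE) by time in hours for 8 NR3C1 transcripts (left) and 4 FKBP5 transcripts (right), with filled points for an adjusted p of at most 0.1. At 5 h the 3 long NR3C1 transcripts sit between -0.10 and -0.04 and the short ones between -0.25 and -0.57, and FKBP5-204 is above the other FKBP5 transcripts at 1 and 3 h.

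Both HSP90 genes were called lower with dex at 5 and 7 h, and the return toward EtOH by 11 h passed its test for HSP90AA1. HSP90AA1, the stress-inducible isoform, was at 2870 and 3237 CPM with dex at 5 h against 4697 and 4728 CPM with EtOH. At 7 h it was at 3289 and 3446 CPM against 4428 and 4452 CPM. At 11 h it was at 4166 and 4062 CPM against 4527 and 4309 CPM. Dex libraries were below EtOH libraries at every time from 3 h on, as they were for 23.6% (11 h) to 29.8% (7 h) of all genes at a single time. The gap was widest at 5 h and narrowest at 11 h among the times from 5 h on.

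The log2 fold change of HSP90AA1 was -0.63 ± 0.11 at 5 h (edgeR adjusted p = 1.06e-05) and -0.40 ± 0.08 at 7 h (edgeR adjusted p = 0.000121). At 9 h it was -0.30 ± 0.12 (edgeR adjusted p = 0.109) and at 11 h -0.10 ± 0.14 (edgeR adjusted p = 0.803). HSP90AA1 did pass at 9 h in one fit over 24 libraries, without a filter, with a block on replicate number and with the GC-content offset. The change in the effect was tested directly. From 3 to 5 h it fell by 0.51 on the log2 scale (edgeR adjusted p = 0.0119), where 6.94% of all genes passed. From 5 to 11 h it rose by 0.52 (edgeR adjusted p = 0.0215), where 2.91% of all genes passed.

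HSP90AB1, the constitutive isoform, was at 1098 and 1017 CPM with dex at 5 h against 1452 and 1487 CPM with EtOH. Its log2 fold change was -0.47 ± 0.10 at 5 h (edgeR adjusted p = 0.000443) and -0.25 ± 0.08 at 7 h (edgeR adjusted p = 0.0119). At 9 h it was of like size, -0.26 ± 0.11, but did not pass (edgeR adjusted p = 0.148). It did pass at 9 h in one fit over 24 libraries, with a block on replicate number and with the GC-content offset. At 11 h it was -0.13 ± 0.13 (edgeR adjusted p = 0.723). The call at 7 h was lost without either dex library (-0.24 and -0.27, adjusted p of 0.223 and 0.167). The effect fell by 0.39 from 3 to 5 h (edgeR adjusted p = 0.0481), and its return from 5 to 11 h, by 0.35, did not pass (edgeR adjusted p = 0.144).

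The balance of the isoforms was tested as a ratio. The ratio of HSP90AA1 to HSP90AB1 counts within a library had a median of 3.17 over the dex libraries (range 2.62 to 3.62) and 3.24 over the EtOH libraries (range 3.09 to 3.53). The mean log2 difference of dex from EtOH over the 6 time points was -0.03, within -0.15 to 0.17 at single times, and a two-sided exact permutation test within time points gave p = 0.439. That p does not show that the isoforms act alike.

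All 5 HSP90AA1 and all 3 HSP90AB1 transcripts passed at 5 and at 7 h, each lower with dex, where 14.7% and 16.1% of all transcripts passed in either direction. These transcripts are not independent readings. The 3 HSP90AB1 transcripts held 33.2%, 33.2% and 33.6% of their gene's counts, and their split varied over libraries with a chi-square per degree of freedom of 0.89. HSP90AA1-201 and HSP90AA1-202 held 50.1% and 49.9% of the counts of the pair (chi-square per degree of freedom 1.38). They start at different places, and that difference cannot be read from their counts.

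PTGES3, the p23 gene, also fell at 5 h, from 889 and 1013 CPM with EtOH to 741 and 788 CPM with dex. The log2 fold change was -0.31 ± 0.10 (edgeR adjusted p = 0.0252). All 5 of its transcripts passed, at -0.29 to -0.41, where 14.7% of all transcripts did. They are not independent readings, since PTGES3-202, PTGES3-203 and PTGES3-204 have 0 bases of their own among the listed transcripts. The call of the gene was lost without replicate 1 of dex (-0.27, adjusted p = 0.133) or without replicate 2 of EtOH (-0.22, adjusted p = 0.308). At the other times it lay between -0.23 and 0.06 and did not pass in edgeR. It passed at 7 h without replicate 1 of EtOH (-0.24, adjusted p = 0.00480), and at 9 h without replicate 2 of EtOH (-0.30, adjusted p = 0.00565) and with the GC-content offset (-0.28, adjusted p = 0.0634). At 11 h, where the dex libraries were 937 and 650 CPM, it was -0.52 without replicate 1 of dex (adjusted p = 0.000231).

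HSPA8, which encodes the constitutive HSC70, did not pass at any time in edgeR. Its log2 fold changes lay between -0.23 and 0.02. Its level at 5 h was 2103 and 2141 CPM with dex against 2359 and 2385 CPM with EtOH. Both dex libraries were thus below both EtOH libraries, as they were for 27.7% of all genes at 5 h. At 9 h it passed without replicate 1 of EtOH, at -0.36 (adjusted p = 0.000570) in place of -0.23. Of its 17 transcripts, 5 passed at 5 h, all lower, between -0.33 and -0.52, where 14.7% of all transcripts passed. Those 5 held between 1.27% and 2.32% of the gene's counts each. The HSPA8 transcripts overlap one another, so these are not independent readings.

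DNAJB1, the HSP40 gene, moved the other way. At 3 h it was at 281 and 249 CPM with dex against 181 and 163 CPM with EtOH. At 7 h it was at 233 and 240 CPM against 150 and 148 CPM. At 11 h it was at 245 and 313 CPM against 218 and 186 CPM. Every dex library was above both EtOH libraries of its time at all 6 time points. At a single time, 17.8% (1 h) to 28.9% (7 h) of all genes lay above in this way.

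The log2 fold change of DNAJB1 was 0.62 ± 0.10 at 3 h (edgeR adjusted p = 3.76e-05), 0.56 ± 0.10 at 5 h (edgeR adjusted p = 3.44e-05) and 0.67 ± 0.08 at 7 h (edgeR adjusted p = 4.72e-09). It was 0.41 ± 0.11 at 9 h (edgeR adjusted p = 0.0173), a call that was lost without either dex library (0.43 and 0.40, adjusted p of 0.244 and 0.270). At 11 h, where the dex replicates were 245 and 313 CPM, it was 0.46 ± 0.15 and missed the threshold (edgeR adjusted p = 0.109). It passed there in one fit over 24 libraries (adjusted p = 0.00244) and with the GC-content offset (0.40, adjusted p = 0.0357).

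The step in the DNAJB1 effect from 1 to 3 h was 0.52 ± 0.15 (edgeR adjusted p = 0.0539). The principal transcript, DNAJB1-201, held 80.2% of the counts and passed at 3, 5, 7 and 9 h. DNAJB1 was also the gene with the clearest change in EtOH, where its level at 11 h was 0.49 above that at 1 h on the log2 scale (edgeR adjusted p = 0.0948, where 0.0913% of all genes passed), so its dex effect sat on a control level that moved as well.

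**Figure D3:**
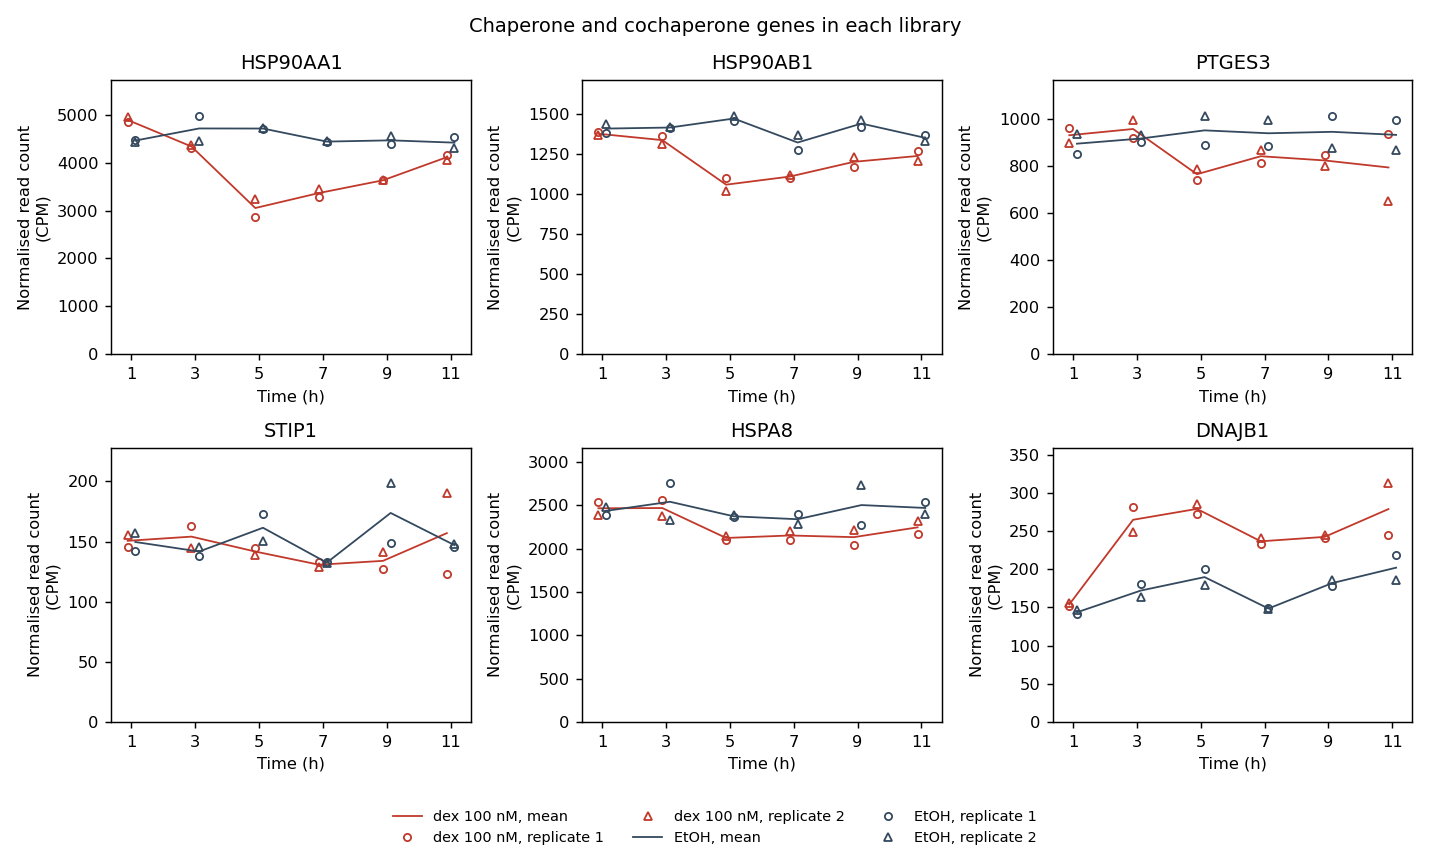
Normalised read count (CPM) of HSP90AA1, HSP90AB1, PTGES3, STIP1, HSPA8 and DNAJB1 against time in hours, with 1 point for each library and lines through the mean of the 2 replicates. HSP90AA1 with dex is lowest at 5 h, at 2870 and 3237 CPM, and DNAJB1 with dex is above EtOH at each time.

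STIP1, which links HSP70 to HSP90, passed once. At 9 h it was at 127 and 141 CPM with dex against 149 and 198 CPM with EtOH, a log2 fold change of -0.37 ± 0.14 (edgeR adjusted p = 0.0853). Replicate 2 of EtOH stood apart, and without it the value was -0.15 (adjusted p = 0.281), while without replicate 1 of EtOH it was -0.56 (adjusted p = 3.77e-08). Without replicate 1 or replicate 2 of dex it was -0.30 and -0.45 (adjusted p of 0.536 and 0.234), and DESeq2 gave -0.36 (adjusted p = 0.190). At the other times it lay between -0.19 and 0.12 and did not pass in edgeR. At 11 h, where the dex libraries were 123 and 191 CPM, it was 0.37 without replicate 1 of dex and passed (adjusted p = 0.00258).

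FKBP4 and PPID, the immunophilins that compete with FKBP5, did not pass at any time in edgeR. FKBP4 lay between -0.27 at 9 h and 0.08 at 3 h on the log2 scale, with 12 dex libraries at 154 to 208 CPM and 12 EtOH libraries at 156 to 229 CPM. PPID lay between -0.25 at 9 h and 0.03 at 5 h, at 32.7 to 46.6 CPM with dex and 33.4 to 49.3 CPM with EtOH. Without replicate 1 of EtOH at 9 h both passed, at -0.41 (adjusted p = 8.92e-05) and -0.33 (adjusted p = 0.0609). FKBP4 also passed at 5 h with the GC-content offset (-0.22, adjusted p = 0.0919) and at 11 h without replicate 2 of dex (-0.27, adjusted p = 0.0697), and PPID at 9 h with the offset (-0.34, adjusted p = 0.0918). The only transcript of either to pass was FKBP4-202 at 5 h, at -0.75.

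The balance of immunophilin RNA therefore turned on FKBP5. The ratio of FKBP5 to FKBP4 counts within a library was 0.163 and 0.160 with EtOH at 1 h and 0.259 and 0.214 with dex. At 3 h it was 1.08 and 1.22 with dex against 0.115 and 0.118, and at 9 h 2.52 and 2.19 against 0.135 and 0.0900. The ratio of FKBP5 to PPID rose from 0.653 and 0.484 with EtOH at 9 h to 11.4 and 12.3 with dex. Gene length enters these count ratios but not their change.

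The mean log2 difference of dex from EtOH over the 6 times was 3.40 for FKBP5 to FKBP4 and 3.38 for FKBP5 to PPID, higher at 6 of 6 times. The two-sided exact permutation test over 46656 arrangements within time points gave p = 4.29e-05 for each, the smallest that it can give (6.43e-05 after Benjamini-Hochberg adjustment over 3 ratios). Per length, FKBP5 reached 97.2 CPM per kb with dex at 9 h, against 130 CPM per kb for FKBP4 and 29.7 CPM per kb for PPID in the same libraries, each a mean of 2.

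Counted over the 10 genes, 0 passed at 1 h (edgeR, adjusted p of at most 0.1) against 1.04% of all 15337 genes tested. DESeq2 also called 0, and 1 gene, FKBP5, had an unadjusted p under 0.05 in edgeR. At 3 h 3 of 10 passed (14.2% of all genes, 8.43% higher and 5.81% lower), NR3C1 lower and FKBP5 and DNAJB1 higher. At 5 h 5 of 10 passed (25.0% of all genes, 12.4% higher and 12.6% lower), FKBP5 and DNAJB1 higher and HSP90AA1, HSP90AB1 and PTGES3 lower.

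At 7 h 4 of 10 passed (28.3% of all genes, 14.3% higher and 14.0% lower), FKBP5 and DNAJB1 higher and both HSP90 genes lower. At 9 h 4 of 10 passed (19.7% of all genes, 10.1% higher and 9.59% lower), FKBP5 and DNAJB1 higher and NR3C1 and STIP1 lower. At 11 h 2 of 10 passed (9.09% of all genes, 5.56% higher and 3.53% lower), FKBP5 higher and NR3C1 lower. No test was made of the difference between the 10 genes and all genes.

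At 9 h the levels of all 10 genes were apart, with 2 above EtOH in both dex libraries and 8 below. Over all genes, 55.1% were apart, 26.4% above and 28.7% below. The median log2 fold change of the 10 was -0.25, against -0.03 over all genes. With the GC-content offset 7 of 10 passed at 9 h (HSP90AA1, HSP90AB1, PTGES3 and PPID were added and STIP1 was lost), without replicate 1 of EtOH 9 passed, and without either dex library only FKBP5 did. The calls over all 15337 genes moved with the same libraries, from 3021 to 5304 without replicate 1 of EtOH and to 1436 and 1509 without replicate 1 or 2 of dex.

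**Figure D4:**
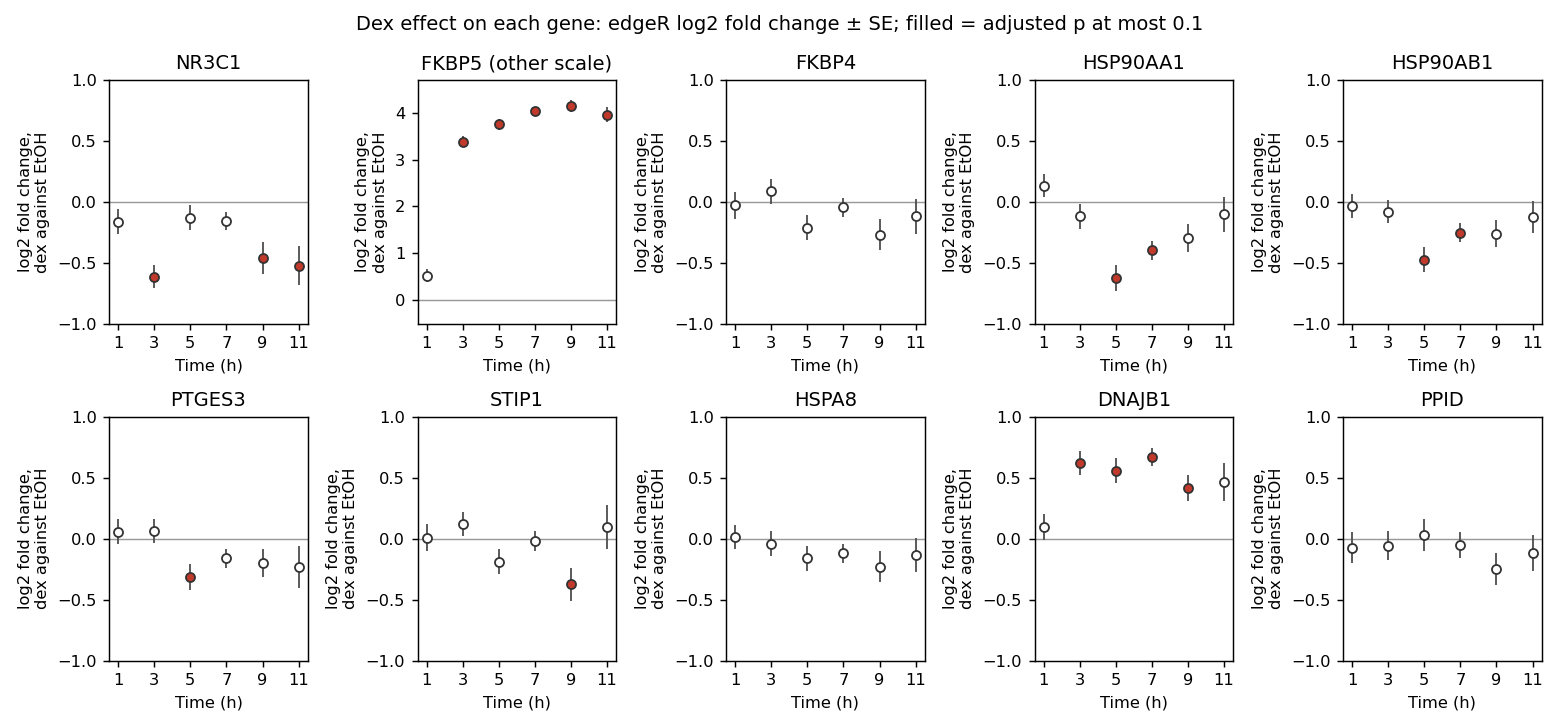
The edgeR log2 fold change of dex against EtOH (± SE) at each time in hours for the 10 genes, with filled points for an adjusted p of at most 0.1 and FKBP5 on its own scale. HSP90AA1 dips to -0.63 at 5 h and is at -0.10 by 11 h. From 3 h on, DNAJB1 lies between 0.41 and 0.67 and FKBP5 between 3.38 and 4.14.

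Across time, the dex effect differed between time points for 4 of 10 genes (interaction F-test of edgeR over 24 libraries, adjusted p of at most 0.1), against 15.4% of all genes. They were FKBP5 (adjusted p = 2.77e-15), HSP90AA1 (0.000958), HSP90AB1 (0.0740) and DNAJB1 (0.0814). With each of the 24 libraries left out in turn, FKBP5 and HSP90AA1 passed in all 24 fits, and HSP90AB1 and DNAJB1 each in 10 (highest adjusted p of 0.235 and 0.253). In EtOH alone, 0 of 10 genes changed with time by edgeR (0.0522% of all genes did). FKBP5, FKBP4 and DNAJB1 had an unadjusted p under 0.05. DESeq2 called 1 of the 10, DNAJB1, and 630 of the 9220 genes to which it gave an adjusted p.

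Of the genes around these 10, the HSP70 and HSP40 families with their BAG partners held the largest share of genes called alike at consecutive time points among the 6 lists. Of 30 tested, 11 passed in this way, against 20.2% of all genes. BAG3, the HSP70 nucleotide exchange factor of stressed cells, was at 183 and 174 CPM with dex at 3 h against 67.3 and 73.8 CPM with EtOH (log2 fold change 1.34 ± 0.10), and it passed at all 6 times. DNAJB5, another HSP40, was at 1.57 at 7 h on the log2 scale, from a low level of 1.67 to 1.77 CPM with EtOH.

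The stress-inducible HSP70 genes went the other way. HSPA1A was at 36.8 and 39.8 CPM with dex at 9 h against 82.5 and 109 CPM with EtOH (-1.32 ± 0.14). HSPA1B at 9 h was at 38.3 and 35.8 CPM with dex against 79.7 and 92.9 CPM with EtOH (-1.22 ± 0.13). Averaged over all time points, the log2 fold change was smaller, at -0.47 for HSPA1A and -0.59 for HSPA1B. The calls over all genes at 9 h also moved with single libraries, as given above. HSPA1A and HSPA1B are near-identical copies, so reads between them are shared and their values are uncertain one by one. At 7 h 4 genes of this list were higher and 9 lower, and 28.3% of all genes passed there.

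CRYAB and HSPB1, both small heat shock protein genes, rose. CRYAB (alpha B-crystallin) was at 16.3 and 14.0 CPM with dex at 5 h against 1.84 and 3.66 CPM with EtOH (log2 fold change 2.42 ± 0.24). HSPB1 (HSP27) was at 255 and 219 CPM with dex at 5 h against 86.0 and 64.9 CPM (1.66 ± 0.12). Both passed from 3 to 11 h. They were 2 of 10 genes in a list of heat shock factors and small or mitochondrial heat shock proteins to pass at consecutive times, a share near the 20.2% of all genes. HSF1 itself passed at 5 h alone (0.36), and the median of the list at 5 h was 0.16 against 0.01 over all genes.

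Among 21 further HSP90 paralogues and cochaperones, 3 passed in the same direction at consecutive times, a smaller share than the 20.2% of all genes. CACYBP (-0.40 ± 0.11) and CHORDC1 (-0.26 ± 0.10), both partners of HSP90, were lower at 5 h and at 7 h. At 7 h these were the 2 lower genes of the list against 4 higher, and its median was 0.17. FNIP2, an HSP90 cochaperone that works with folliculin, was higher at 3 h (0.94 ± 0.17), 9 h and 11 h. CDC37, which brings kinases to HSP90, was higher at 7 h (0.33) and lower at 9 h (-0.46).

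Of 22 other immunophilins, 2 passed at consecutive times, a smaller share than the 20.2% of all genes. PPIC, the cyclophilin C gene, was higher at 5, 7 and 9 h (0.42, 0.25 and 0.64), and PPIL3 was higher at 5 and 7 h (0.35 and 0.38). None came near the change of FKBP5. Of the 8 subunits of the TRiC chaperonin, which folds actin and tubulin, 1 passed at any time, CCT4 at 5 h (-0.25).

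Of 25 genes for GR transport and coregulators, 4 passed at consecutive times, a smaller share than the 20.2% of all genes. The import receptor gene IPO13, whose product carries GR into the nucleus, was at 43.0 and 46.8 CPM with dex at 5 h against 33.7 and 32.0 CPM with EtOH, and it was higher at 3, 5 and 7 h (0.36, 0.45 and 0.46 on the log2 scale). At 5 h 5 of the 25 were higher and 2 lower, against 25.0% of all genes called.

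By Pearson correlation of log2 CPM over the 24 libraries, among 9515 other genes with a mean log2 CPM of at least 3, FKBP5 was most like TMEM164 (r = 0.993), TFCP2L1 (0.993) and STOM (0.992). The libraries fall into dex and EtOH groups, so these values describe a shared rise with dex. TMEM164 was at 1.35 on the log2 scale at 3 h and TFCP2L1 at 3.93. NR3C1 was most like ASF1A (r = 0.870), ZBED5 (0.847) and ZIC5 (0.845). ASF1A, a histone chaperone gene, was lower at 3 h (-0.60) and 11 h (-0.55) and at -0.18, -0.13 and -0.17 from 5 to 9 h.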

How the data were processed

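Per the study's methods, Bowtie placed the 50-base reads of strand-specific poly-A libraries on GENCODE transcript models, and samtools gave the number placed on each model. The deposited values are counts, not scaled by depth or length. The placement of reads that match several transcripts, and the use of strand, are not given in the sources used here. The submitters' processing notes name hg19. Of 119207 transcripts, 110262 were joined to genes of GENCODE release 29 (GRCh38), with 94.1% of the counts, and summed per gene.

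Gene sums (15337 after filterByExpr over 12 groups) and transcripts (56380) were tested at each time by itself, 2 dex against 2 EtOH libraries, with TMM and the quasi-likelihood F-test of edgeR 4.0.16 in R 4.3.3, Benjamini-Hochberg adjustment and a threshold of 0.1. This test was also run on simulated counts with known changes, and the outcome of that run is not given here. Interaction and time tests used one fit over 24 libraries. SE is the log2 fold change over the root of F. The edgeR p-values rest on the spread between the 2 libraries of a group, moderated toward a trend over all genes tested. In the fit over 24 libraries that spread was pooled over the 12 groups. The study's methods state more replicates per group than the labels. Ratios used an exact permutation test in Python 3.11.15. DESeq2 was 1.42.0 and figures used matplotlib 3.10.9. Promoters are from RefSeq.

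The 10 genes and the lists were chosen with earlier results of these data known. Named beside the 10 genes and their main transcripts are, per list, up to 2 higher and 2 lower genes with the largest mean change among those called alike at consecutive times, and the 3 genes most like FKBP5 and NR3C1. One result under this rule is not reported here. HSF1, CDC37, CCT4 and the NR3C1 classes were chosen after their values were seen.

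Replicate numbers were not used to pair the libraries in the main fits, and a block on them was run as an alternative. The study's methods call the ethanol control paired. The correlation of same-numbered deviations was between -0.07 and 0.16 over the 6 times, which does not settle whether same-numbered libraries were pairs.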

Additional observations from a re-analysis of the deposited data

Results flagged for a closer look

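The dex effect differed between time points, by the interaction F-test of edgeR with Benjamini-Hochberg adjustment, in 4 of the 10 genes. FKBP5 (adjusted p = 2.77e-15) went from a log2 fold change of 0.52 at 1 h to 4.14 at 9 h. HSP90AA1 (adjusted p = 0.000958) went from 0.13 at 1 h to -0.63 at 5 h and -0.10 at 11 h. HSP90AB1 (adjusted p = 0.0740) went from -0.03 at 1 h to -0.47 at 5 h and -0.13 at 11 h. DNAJB1 (adjusted p = 0.0814) went from 0.10 at 1 h to 0.67 at 7 h. Groups of 2 libraries are too small for a test of single outlying libraries.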

How the results depend on the processing

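Of 18 calls of a gene at a time point, 12 passed in every alternative and 0 changed direction. Over 252 values under the alternatives, 19 fell short of the threshold, all among NR3C1 at 9 and 11 h, STIP1 and DNAJB1 at 9 h, HSP90AB1 at 7 h and PTGES3 at 5 h. Leaving out each library in turn gave counts of genes passing of 0 to 1 at 1 h, 3 to 3 at 3 h, 4 to 5 at 5 h, 3 to 6 at 7 h, 1 to 9 at 9 h and 1 to 5 at 11 h. Over all genes these runs gave 2225 to 5047 calls at 7 h, 1436 to 5304 at 9 h and 711 to 4940 at 11 h. For effects that changed with time and for change in EtOH, the number passing also moved, as did the calls over all genes. At 11 h 5 genes passed without replicate 1 of dex and 4 without replicate 2, and 1 without either EtOH library. The 3 count ratios kept their side of the threshold under every alternative, between 3.35 and 3.45 (FKBP5 to FKBP4), -0.05 and -0.01 (HSP90AA1 to HSP90AB1) and 3.35 and 3.42 (FKBP5 to PPID) with each library left out.

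At 1 h 1 gene passed in one fit over 24 libraries and with the GC-content offset, where none had. Over all genes these gave 192 and 249 calls, against 159 in the main fit. At 9 h the GC-content offset gave 7, with 3057 calls over all genes against 3021. A threshold of 0.05 gave 1 at 11 h and 2 for effects that changed with time. Over all genes that threshold gave 1046 and 1640 calls, against 1394 and 2360. The transcript with the most counts gave 1 at 11 h, where 2885 of 56380 transcripts passed. DNAJB1 was added for 3 at 11 h in one fit, without a filter, with protein-coding transcripts, with the GC-content offset and with the block. For change in EtOH, DESeq2 and the fit without a filter gave 1 and the GC-content offset 2. Over all genes these gave 630 of 9220, 1237 of 26601 and 123 of 15337 calls, against 8 of 15337 in the main fit. The replicate block changed the count to 1 at 1 h, 7 at 9 h (FKBP4 at -0.27, adjusted p = 0.0506, among them) and 3 at 11 h and left the ratios' calls as they were. Over all 15337 genes the block gave 579, 4345 and 1766 calls at these times, against 159, 3021 and 1394. The GC-content offset was added after the data were seen, and the cause of these changes was not tested.

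Over all genes, edgeR called 2184, 3834, 4342 and 3021 genes at 3, 5, 7 and 9 h and DESeq2 1136, 2214, 2336 and 1740. With 175 counts in its lowest library, FKBP5 with EtOH is the value that depth limits most.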
